A study of Mus musculus with 3 samples.

Results

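The cells described here are the lymphatic endothelial cells of mouse bladder and of bladder assembloids, which are multilayered tissues rebuilt in culture from bladder epithelial and stromal cells. They were chosen from single-cell RNA-seq by their own transcripts. A mouse cell was a barcode with at least 90% of its unique molecular identifiers (UMIs, 1 per captured transcript) on mouse genes, at least 500 mouse genes and under 20% mitochondrial UMIs. It was endothelial with at least 2 UMIs of Pecam1, Cdh5 and Egfl7 together. An endothelial cell was lymphatic with at least 3 UMIs of Ccl21a, Lyve1, Prox1 and Mmrn1 from at least 2 of these 4 genes. The rule found 383 lymphatic cells among 23925 mouse cells kept, beside 2734 other endothelial cells. The adult bladder library came from a pool of 8 bladders of wild-type C57BL/6 mice aged 8 to 9 weeks, with no treatment named. The other libraries came from assembloids after 1 day and after 7 days of reconstitution, each a pool of 3 assembloids, and their labels name no strain and no age of the mice. Each group was 1 library, so no test of a difference between groups was possible. Every interval below covers counting error only, at 95%, and says nothing of the spread between animals or assembloids.

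Lymphatic capillaries take up fluid, proteins and immune cells from tissues, and collecting vessels with valves return them to the blood. The endothelium that lines them forms from venous endothelium when the transcription factor Prox1 is switched on, and it grows under VEGF-C through the receptor Flt4 (VEGFR-3). Its cells present the chemokine Ccl21, which draws dendritic cells and T cells carrying Ccr7, and they carry the hyaluronan receptor Lyve1, mostly in capillaries. In the bladder wall lymphatic vessels run in the connective tissue and between the muscle bundles.

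The 3 libraries held 93560608, 135955678 and 120301672 UMIs in the order bladder, 1-day and 7-day. The number of barcodes was between 8642 and 9548, and 21 barcodes were shared by bladder and 1-day, 30 by bladder and 7-day, and 114 by 1-day and 7-day. Of the lymphatic cells, 1 bladder cell and no assembloid cell had a barcode found in another library. The lymphatic cells had a median of 4332 UMIs in bladder, 7045 at 1 day and 3089 at 7 days, against 6015.5, 12243 and 6038 in the other endothelial cells. Some barcodes carried markers of another cell type above 0.5% of their UMIs and are called mixed cells here. There were 19 mixed cells among 221 lymphatic cells in bladder, 2 of 47 at 1 day and 13 of 115 at 7 days. The 19 in bladder held 29.8% of all UMIs of the bladder lymphatic cells, with a median of 24016 UMIs per mixed cell, and urothelial markers were over the limit in 14 of the bladder lymphatic cells. Where leaving mixed cells out of both sides of a comparison moved a ratio described below by over 1.5-fold, it is given without them as well.

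Bladder held 221 lymphatic cells, 17.8% of its 1243 endothelial cells (exact Clopper-Pearson interval 15.7% to 20.02%). The 1-day library held 47 of 683, which is 6.88% (5.10% to 9.05%), and the 7-day library 115 of 1191, which is 9.66% (8.04% to 11.5%). As a share of all kept cells these were 3.15%, 0.550% and 1.37%. Some macrophages also carry Lyve1, so leukocyte markers were summed as a check of the label. Summed over 9 myeloid markers the lymphatic cells had 5.11 CPM (UMIs of a gene in each 1000000 mouse UMIs of the cells) in bladder, 4.46 CPM at 1 day and 13.8 CPM at 7 days. Ptprc, the common leukocyte antigen CD45, was at 0 in all 3. The threshold left few cells close to it in bladder, where 1 lymphatic cell had exactly 3 UMIs of the 4 genes, while 13 endothelial cells had 2 UMIs and 19 had 3 or more from 1 gene only. At 1 day the same counts were 1, 5 and 4, and at 7 days 4, 5 and 3. Cells with the lymphatic genes but under 2 endothelial UMIs numbered 10 in bladder, 0 at 1 day and 36 at 7 days, with a median of 2919 UMIs in bladder and 1528 at 7 days.

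The 4 lymphatic genes that chose the cells differed in how they were spread over the libraries. Ccl21a (chr4:42772860-42773993, minus strand, mm10), the chemokine gene, had a median of 32 UMIs per lymphatic cell in bladder, with a highest value of 238. At 1 day its median was 0 and its highest value 1, with 3 UMIs in 47 cells. At 7 days its median was 9 and its highest value 154. The 7-day cells thus ranged from the 1-day value of 0 to values above the bladder median. Mmrn1, a secreted multimerin on chromosome 6, had medians of 12, 2 and 7 UMIs in the order bladder, 1-day and 7-day. Lyve1, the hyaluronan receptor on chromosome 7, had medians of 7, 3 and 4. Prox1, the fate-setting transcription factor on chromosome 1, had medians of 3, 3 and 2. All 4 genes were present in 155 of 221 bladder cells, in 2 of 47 cells at 1 day and in 50 of 115 at 7 days. These values chose the cells and are given as a description. Chosen by Lyve1, Prox1 and Mmrn1 alone, 218, 46 and 107 cells had 6006, 4.51 and 1813 CPM of Ccl21a. All of these cells were among the lymphatic cells above, so the values are no independent check.

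**Figure D1:**
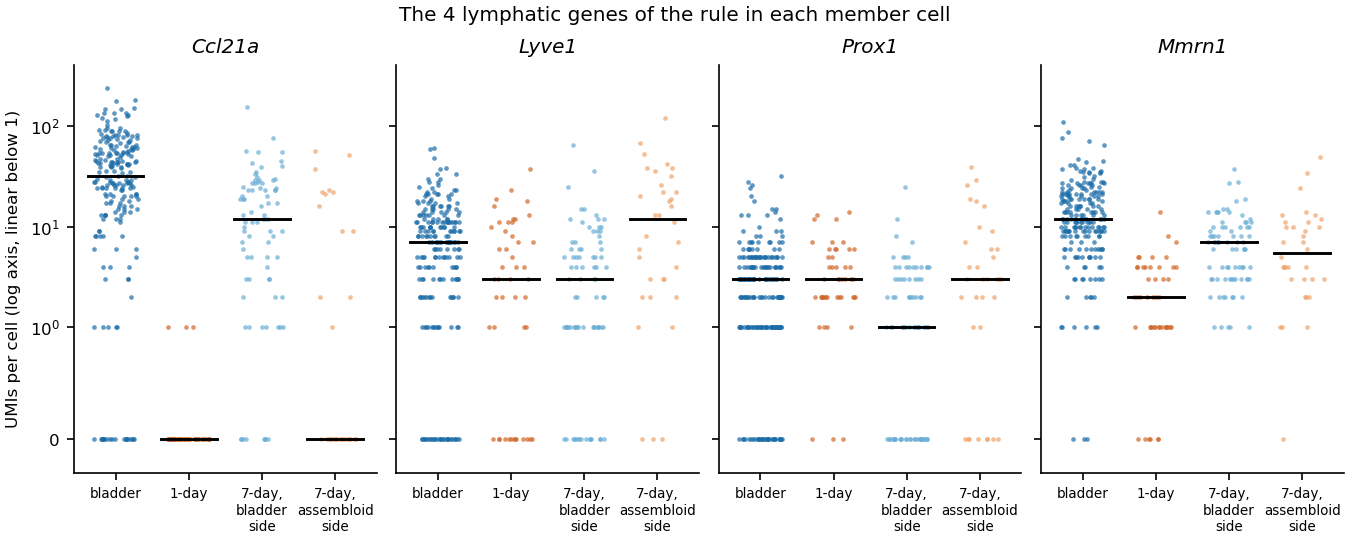
UMIs per lymphatic cell of the 4 genes that chose the cells, on an axis that is logarithmic above 1 and linear below it, with 1 point per cell and a bar at the median; the 7-day cells are drawn on the side of bladder or of 1-day endothelium to which their other genes were closer. Ccl21a reached a median of 32 UMIs in bladder and 0 at 1 day, while Prox1 had a median of 3 in both.

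The mouse genome carries several near-identical copies of Ccl21a on chromosome 4 and on unplaced scaffolds, and reads could be split between them. In the lymphatic cells the UMIs of the copies fell on ENSMUSG00000094686, except for 11 UMIs of Ccl21c in bladder and 1 at 7 days. Nts encodes neurotensin, a peptide that lymphatic endothelium is known to express, and lies at chr10:102481756-102490486 on the minus strand. The bases before the start sites of these genes are printed because their levels at 1 day went opposite ways: Ccl21a was lower and Nts higher than in bladder. They come from RefSeq (GRCm38.p6), minus strand, and end where the annotated gene begins. The window of Ccl21a is chr4:42773994-42774241 with 52.8% G and C, and that of Nts is chr10:102490487-102490668 with 48.4%. Short strings were searched on both strands in the 250 bases before the RefSeq start: TATAAA of the TATA box, GGAAGT of ETS factors, TGACCT of nuclear receptors such as Nr2f2, AGATAA of GATA factors and CACGTG of E-box factors. None of these strings contains another. Capitals mark the match, AGATAA in Nts, 131 to 126 bases before the RefSeq start, a string that 9.99% of 32851 promoters hold. The RefSeq start lies inside the annotated gene, so the last 68 bases searched for Nts and the last 2 for Ccl21a are not printed. The Ccl21a window held none of these strings.
Ccl21a: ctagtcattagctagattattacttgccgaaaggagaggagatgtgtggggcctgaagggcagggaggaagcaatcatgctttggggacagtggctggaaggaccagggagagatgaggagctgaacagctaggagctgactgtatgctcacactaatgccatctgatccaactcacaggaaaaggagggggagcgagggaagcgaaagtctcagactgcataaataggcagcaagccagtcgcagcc
Nts: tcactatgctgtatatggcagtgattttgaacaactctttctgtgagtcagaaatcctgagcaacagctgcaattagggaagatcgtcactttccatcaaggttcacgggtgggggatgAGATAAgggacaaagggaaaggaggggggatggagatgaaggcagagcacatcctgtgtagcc

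Against the other endothelial cells of the same bladder library, the lymphatic cells carried a broad lymphatic programme and little of the blood vessel one. UMIs were summed over cells, scaled to CPM and compared as log2 ratios with 0.5 UMIs added to each sum. A gene counted as higher or lower at 2-fold or more, with at least 20 CPM in the higher set. Of 6735 genes with that level, 8.3% were higher and 9.81% lower in lymphatic cells, and the median log2 ratio was 0.10. The same cells chose the sets and gave these ratios, so the ratios are a description. Of 22 lymphatic identity genes outside the rule, 21 were measured and 19 were higher, 0 were lower, and their median log2 ratio was 4.26. The exceptions among the measured genes were Nrp2, a co-receptor for VEGF-C and semaphorins, at 209 CPM against 158 CPM, and Rassf9 at 83.0 CPM against 66.4 CPM.

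Several of these genes encode receptors or surface proteins. Flt4, the VEGF-C receptor, had 563.5 CPM in lymphatic cells against 19.2 CPM in the other endothelial cells, a log2 ratio of 4.87 (4.63 to 5.12). Pdpn, podoplanin, a membrane glycoprotein that keeps lymph and blood vessels apart through platelets, had 202 CPM against 8.23 CPM, a log2 ratio of 4.61. Without mixed cells on either side the log2 ratio of Pdpn was 7.74. The level of Pdpn in the other cells was then 1.16 CPM. Thy1, a surface glycoprotein, had 392 CPM against 9.80 CPM. Mrc1, the mannose receptor, had 35.1 CPM against 0.726 CPM, and its log2 ratio went from 5.49 to 7.59 without mixed cells.

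Others encode secreted factors. Nts had 786 CPM in lymphatic cells against 0.363 CPM in the others, a log2 ratio of 10.86 (9.53 to 13.36). Reln, reelin, a matrix glycoprotein that lymphatic endothelium is known to secrete, had 546 CPM against 2.90 CPM. Fgl2, a fibrinogen-like protein, had 1886 CPM against 126 CPM. The guidance factors Sema3d and Sema3a, which act through neuropilin and plexin receptors, were also almost absent from the other endothelial cells. Sema3d had 172 CPM against 2.78 CPM (log2 5.92, or 9.14 without mixed cells). Sema3a had 55.5 CPM against 0.484 CPM (log2 6.68, or 8.13 without mixed cells). Among transcription factors, Maf had 439 CPM against 10.0 CPM (log2 5.44, or 6.15 without mixed cells) and Tbx1 172 CPM against 8.95 CPM.

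After the rule genes Ccl21a, Lyve1 and Mmrn1, and after Nts, Reln and Sema3d, the highest log2 ratios among genes of at least 100 CPM belonged to Dtx1, Slc45a3, Lcn2, Il7, Sh3gl3 and Pcsk6. Dtx1, a ubiquitin ligase of the Notch pathway, had 298 CPM against 1.33 CPM. Lcn2, lipocalin 2, an iron-siderophore binding protein, had 943 CPM against 5.69 CPM. Slc45a3, a membrane transporter, had 290.4 CPM against 1.45 CPM, with a log2 ratio of 7.59 and of 9.01 without mixed cells. Il7, the interleukin that keeps lymphocytes alive, had 101 CPM against 1.33 CPM, a log2 ratio of 6.18 (5.37 to 7.28). Pcsk6, a proprotein convertase, had 179 CPM against 3.75 CPM, and Sh3gl3, an endophilin, 147 CPM against 2.78 CPM.

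**Figure D2:**
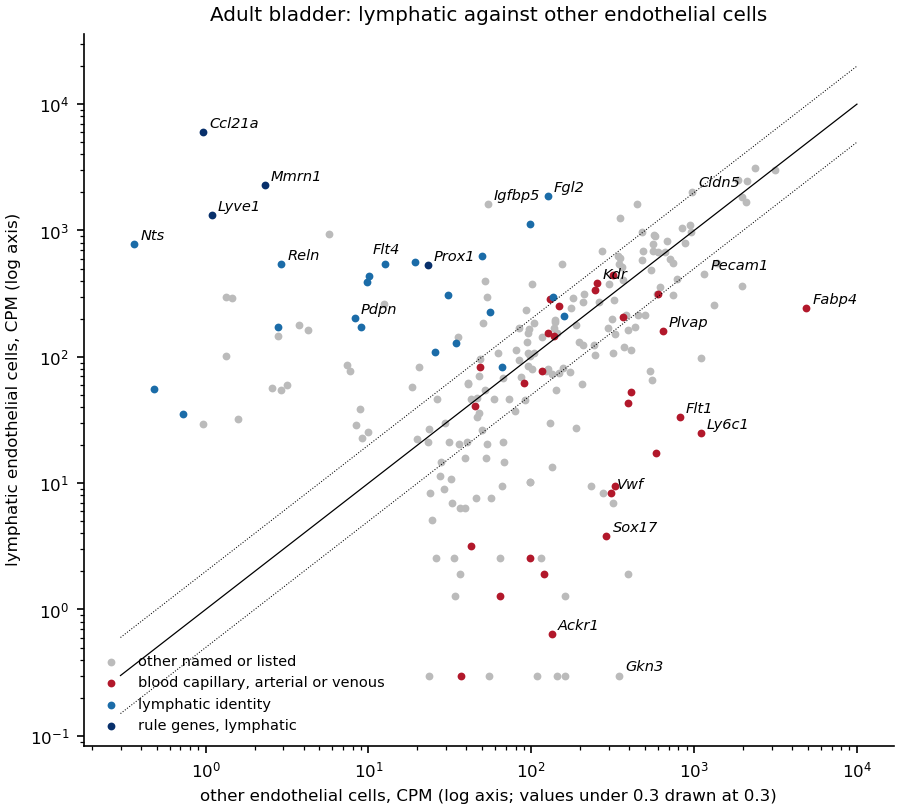
Summed level of each named or listed gene in the lymphatic cells (vertical) and in the other endothelial cells (horizontal) of adult bladder, in CPM on log axes, with lines at equal level and at 2-fold. Flt4 (563.5 against 19.2 CPM), Reln and Nts lie far above the line, and Ly6c1 (24.9 against 1097 CPM), Vwf and Sox17 far below it.

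The leukocyte traffic genes split. Of 13 measured, 5 were higher and 4 lower in the lymphatic cells, with a median log2 ratio of 0.51. Beside Il7 the higher ones included Ackr2, a scavenger receptor for inflammatory chemokines, at 29.4 CPM against 0.968 CPM, and Ccl2, a monocyte chemokine, at 56.8 CPM against 2.54 CPM. Without mixed cells the log2 ratio of Ackr2 went from 4.85 to 7.32 and that of Ccl2 from 4.46 to 5.77. Cxcl12, which retains leukocytes carrying Cxcr4, was lower, at 65.7 CPM against 548 CPM. Of 14 basement membrane genes 5 were higher and 3 lower. Lama4, a laminin chain of endothelial basement membrane, had 296 CPM against 53.2 CPM. Sparc, a collagen-binding matrix protein, had 364 CPM against 1962 CPM, a log2 ratio of -2.43 and of -3.55 without mixed cells. Igfbp5, an IGF-binding protein, was outside the lists and had 1630 CPM against 54.0 CPM, a log2 ratio of 4.92 that became 5.95 without mixed cells.

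Growth factor receptors divided by family member. The VEGF-A receptor Kdr had 384 CPM in lymphatic cells against 252 CPM in the others, a log2 ratio of 0.60, under the 2-fold line. Flt1, the VEGF-A and PlGF receptor of blood endothelium, had 33.2 CPM against 813 CPM, a log2 ratio of -4.60 (-5.04 to -4.22). Nrp1, the co-receptor that pairs with Kdr, had 8.30 CPM against 277 CPM. Flt1 and Nrp1 were thus low in lymphatic cells while Flt4 was high. The VEGF-C gene itself, Vegfc, had 2.55 CPM against 64.5 CPM. Pgf, the ligand of Flt1, had 86.2 CPM against 7.38 CPM. Of 4 angiopoietin and tip cell genes measured, 2 were higher: Pgf, counted also here, and Angpt2, a ligand of the Tek receptor needed for lymphatic growth, at 57.4 CPM against 18.6 CPM. Of 10 BMP and TGF-beta genes 1 was higher and 3 were lower. Tgfbr2, the TGF-beta type 2 receptor, was the higher one, at 539.9 CPM against 154 CPM, and Smad7, an inhibitor of the pathway, was lower, at 30.0 CPM against 131 CPM. Of 8 Notch genes 1 was higher and 3 lower, and the higher one was Hes1, a target gene, at 689.8 CPM against 270.0 CPM.

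Most measured genes of blood capillaries and veins were lower in the bladder lymphatic cells, while most arterial genes were within 2-fold. Of 12 blood capillary genes measured, 0 were higher and 8 lower, with a median log2 ratio of -3.07. Ly6c1, a surface protein of capillary and arterial endothelium, had 24.9 CPM against 1097 CPM, a log2 ratio of -5.44 (-5.96 to -5.01). Plvap, which forms the diaphragms of fenestrae and caveolae, had 159.5 CPM against 641 CPM. Of 8 venous genes 1 was higher and 5 lower, with a median of -4.33. Vwf, von Willebrand factor, had 8.30 CPM against 308 CPM, and Selp, P-selectin, 17.2 CPM against 583 CPM. Ackr1, the chemokine carrier of venules, had 0.638 CPM against 134 CPM. The higher venous gene was Nr2f2, the factor that specifies veins and switches on Prox1, at 288 CPM against 130.3 CPM.

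Of 9 arterial genes 0 were higher and 3 lower, with a median of -0.52. Sox17, an arterial transcription factor, had 3.83 CPM against 288 CPM. Gja5, connexin 40, had 0 UMIs in lymphatic cells and was at least 19.5-fold lower, taking 3 counts over the lymphatic cells as the floor. On the same floor Gkn3 was at least 180.4-fold lower and Csf2rb, the shared cytokine receptor chain, at least 56.4-fold lower. Lipid genes were lower in 6 of 11, higher in 0, with a median of -1.33. Fabp4, the fatty acid binding protein of capillaries, had 244 CPM against 4899 CPM, a log2 ratio of -4.32 (-4.47 to -4.18), and 3 cells held 300 of its 383 UMIs in the lymphatic cells. Cd36, the fatty acid translocase, had 52.3 CPM against 409.8 CPM. Npy and Prph also had 0 UMIs in the lymphatic cells, but 3 of the other cells held all of Npy, 1 of them 920 of 1333 UMIs, and 2 cells held most of Prph.

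General endothelial genes were shared, with exceptions. Of 16 measured 1 was higher and 6 lower, with a median log2 ratio of -0.75. Cldn5, the main claudin of endothelial tight junctions, was the higher one, at 2034 CPM against 976 CPM. Of 12 junction genes measured 2 were higher and 3 lower, with a median of -0.14. Among the Ig-family junction proteins, Jam2 had 7.02 CPM against 317 CPM and Esam 76.6 CPM against 536 CPM, while F11r had 315 CPM against 211 CPM, under 2-fold. Immediate early and heat shock genes differed little between these sets of cells from 1 dissociated library. Of 17, 0 were higher and 2 lower, and their median log2 ratio was -0.09. Those 2 were Ier3 and Zfp36, and Hspa1a, a heat shock protein gene, had 3025 CPM in lymphatic cells against 3126 CPM in the others.

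Genes of valves and collecting vessels were detected within the bladder lymphatic cells. Of 11 measured 5 were higher than in other endothelial cells and 0 lower, with a median log2 ratio of 1.00 (6 were higher without mixed cells). Foxc2, the transcription factor required for lymphatic valves, had 77.2 CPM against 7.74 CPM, and 19.2% of 203 lymphatic cells thinned to 2500 UMIs had a UMI of it. The background in thinned non-endothelial cells was 1.78%. Cldn11, a claudin of lymphatic valves, had 31.9 CPM against 1.57 CPM, and Foxp2, a transcription factor of collecting vessels, 54.9 CPM against 2.90 CPM (log2 4.22, or 6.24 without mixed cells).

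Within the 202 bladder lymphatic cells that were not mixed, 29 had a UMI of Cldn11 and 173 had none, with median depths of 6520 and 3988 UMIs. Foxp2 had 129.7 CPM in the cells with Cldn11 and 50.4 CPM in those without (log2 1.37, 0.66 to 2.06). Foxc2 had 162 CPM and 90.3 CPM (log2 0.85, 0.26 to 1.41). Lyve1 went the other way, with 961 CPM in cells with Cldn11 and 2048 CPM in cells without. Other genes of the valve list were also higher: Gata2 (log2 0.96, 0.33 to 1.56), Nfatc1 (0.78, 0.22 to 1.31) and Fn1 (0.73, 0.38 to 1.07). Itga9 (log2 0.38, -0.13 to 0.85), Gja4 (0.30, -0.15 to 0.72) and Celsr1 (0.43, -0.76 to 1.44), which are valve genes too, had intervals that included 0. Of these valve genes Foxp2 alone was past 2-fold, and the cells with Cldn11 were deeper. Some genes of blood endothelium were higher in the cells with Cldn11. Fabp4 had 928 CPM against 51.6 CPM, Ly6c1 126 CPM against 8.21 CPM, Flt1 129.7 CPM against 23.5 CPM and Plvap 454 CPM against 135 CPM. Others were lower in them: Gpihbp1 had 365 CPM against 495 CPM and Aqp1 60.8 CPM against 158 CPM. The part of these genes in the contrast was not tested. Split by Foxc2 instead, into 71 cells with a UMI of it and 131 without, Foxp2 had a log2 ratio of 0.14 (-0.55 to 0.83). Itga9 had -0.05, Celsr1 -0.31, Lyve1 -0.23, Gja4 0.32, Gata2 0.40 and Nfatc1 0.19. Fn1 had 0.65 (0.33 to 0.98), and Cldn11 had 63.9 CPM against 23.4 CPM (log2 1.42, 0.50 to 2.47). The splits by Cldn11 and by Foxc2 thus gave different contrasts for Foxp2 and Lyve1, while Fn1 was higher in both, under 2-fold. The 22 cells without a UMI of Lyve1 were compared with the 180 that had one, at median depths of 3764.5 and 4245.5 UMIs. In the cells without Lyve1, Cldn11 had 206 CPM against 21.5 CPM, Foxp2 157 CPM against 57.3 CPM and Nts 1673 CPM against 927 CPM. Foxc2 (198 CPM against 95.1 CPM), Gata2 (157 CPM against 85.9 CPM) and Fn1 (404 CPM against 281 CPM) were also higher in them. Gja4 was lower in them, at 157 CPM against 223 CPM, and Itga9 had 165 CPM against 168 CPM. The intervals of Gja4, Itga9, Nfatc1 and Celsr1 included 0. The capillary-type genes Ccl21a, at 1945 CPM against 8849 CPM, and Reln, at 165 CPM against 797 CPM, were lower in them. Fabp4, at 1912 CPM against 41.9 CPM, and Flt1, at 255 CPM against 21.5 CPM, were higher in the cells without Lyve1. Gpihbp1, at 354 CPM against 479 CPM, and Aqp1, at 16.5 CPM against 151 CPM, were lower in them. Of all Fabp4 UMIs of the unmixed lymphatic cells, 3 cells held 234 of 273. The cells were split by their own UMIs of these genes, so these contrasts are a description of 1 library.

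Prox1 was not confined to the lymphatic cells in bladder. Of the 1022 other endothelial cells of bladder 107 had a UMI of it, which is 10.5% (8.66% to 12.5%) at a median of 6015.5 UMIs, against 1.02% of the non-endothelial cells at 8572 UMIs. The 27 cells with 2 or more UMIs of Prox1, of which the highest had 11, held no UMI of Lyve1, Ccl21a or Mmrn1 because a cell with 1 would have been counted as lymphatic. They were compared with the 915 cells that had no UMI of Prox1. Single cells weigh on sums over 27 cells: Npy (304 UMIs), Prph (126 UMIs) and Dbh (53 UMIs) were each found in 1 of them. Lymphatic identity genes that the rule did not use went different ways. Fgl2 had 467 CPM in the 27 cells against 106 CPM, and Nrp2 365 CPM against 139 CPM. Flt4 had 6.82 CPM against 19.6 CPM. Reln was at 0 UMIs against 3.32 CPM, near the floor in both sets. Selp had 1658 CPM in them against 502 CPM, Vwf 730.2 CPM against 273 CPM, and Ackr1 334 CPM against 112 CPM. Procr, the endothelial protein C receptor, had 1054 CPM against 182 CPM. Cldn5 had 174 CPM against 1054 CPM. Most genes of the venous list that were compared were thus higher in these cells, also Lrg1 at 788 CPM against 322 CPM and Nr2f2 at 290 CPM against 117 CPM. Ephb4, another gene of that list, was lower, at 34.1 CPM against 48.5 CPM. Gkn3 was at 0 UMIs in these cells against 386 CPM. In the assembloids 12 of 636 other endothelial cells had a UMI of Prox1 at 1 day and 36 of 1076 at 7 days.

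At 1 day of reconstitution the lymphatic cells had Prox1 within 2-fold of its bladder level, while most of the other lymphatic genes were lower by 2-fold or more. With 47 cells, fewer than the 50 planned as the minimum, these ratios were added after the counts were known. Of 7194 genes measured, 17.1% were higher and 16.1% lower at 1 day than in bladder lymphatic cells, with a median log2 ratio of 0.15. Prox1 had 412 CPM at 1 day against 529 CPM in bladder, a log2 ratio of -0.36 (-0.60 to -0.13). Lyve1 had 617 CPM against 1330 CPM and Mmrn1 272 CPM against 2291 CPM. Ccl21a had 6.69 CPM against 5985 CPM, a log2 ratio of -9.58 (-12.08 to -8.26). Of 21 lymphatic identity genes, 2 were higher and 13 lower, with a median of -1.61. Without mixed cells 0 were higher and 16 lower, with a median of -2.02.

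The genes that were lower included Fgl2, at 35.7 CPM against 1886 CPM, Reln, at 31.2 CPM against 546 CPM, and Maf, at 26.7 CPM against 439 CPM. Flt4 had 232 CPM against 563.5 CPM, a log2 ratio of -1.28 (-1.59 to -0.99). Igfbp5 had 0 UMIs at 1 day and was at least 243.9-fold lower, with 3 counts over the 1-day cells as the floor. The higher ones were Nts, at 1683 CPM against 786 CPM (log2 1.10, 0.97 to 1.23), and Tbx1, at 392 CPM against 172 CPM. Without mixed cells both were under 2-fold, at log2 ratios of 0.80 and 0.87. Pdpn had 272 CPM against 202 CPM, a log2 ratio of 0.43 and of -0.03 without mixed cells. Outside the rule genes the lymphatic programme was thus uneven. Nts, Tbx1 and Pdpn were within 2-fold of the bladder level or above it, and Fgl2, Reln and Maf were far below it. Prox1 within 2-fold and Ccl21a far below are a description, since these genes chose the cells. In cells thinned to 2500 UMIs, Nts was seen in 83.0% of 47 cells at 1 day and 54.2% of 203 in bladder, with 0.0789% and 0.172% in non-endothelial cells.

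Some genes of blood capillaries, lipid handling and vessel growth had higher levels at 1 day, while more members of their lists were lower than higher or as many. Fabp4 had 2795 CPM at 1 day against 244 CPM in bladder, a log2 ratio of 3.51 (3.35 to 3.68), and 39 of 47 cells had a UMI of it. Fabp5, a related fatty acid binding protein, had 1674 CPM against 172 CPM, with a log2 ratio of 3.28 and of 7.09 without mixed cells. Plvap had 1246 CPM against 159.5 CPM. The counts in their lists went the other way: 6 of 10 blood capillary genes and 6 of 9 lipid genes were lower at 1 day and 2 in each were higher. Gpihbp1, which carries lipoprotein lipase to the vessel lumen, had 11.1 CPM against 340.1 CPM. Of 4 angiopoietin and tip cell genes 2 were higher and 2 lower, and of 7 VEGF receptors and ligands 1 was higher and 3 were lower. Angpt2 had 1362 CPM against 57.4 CPM, a log2 ratio of 4.56 (4.25 to 4.90). Fn1, fibronectin, had 2980 CPM against 242 CPM. The 6 highest log2 ratios among genes of at least 100 CPM were those of Fst, Chst2, Prom1, Ube2c, Edn1 and Hist1h2ap. Fst, follistatin, an activin antagonist, had 218 CPM against 0.638 CPM, and Edn1, endothelin 1, had 316.5 CPM against 9.57 CPM. Ccl2 had 368 CPM against 56.8 CPM, while Il7 had 8.91 CPM against 101 CPM.

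Arterial and Notch genes were low at 1 day. All 6 arterial genes measured were lower, with a median log2 ratio of -3.63, and 5 of 6 Notch genes were lower, with a median of -3.33 (-2.04 with the gene at 0 UMIs at its floor). Dll4, a Notch ligand, had 2.23 CPM against 76.6 CPM, and Hey1, a Notch target, 2.23 CPM against 62.5 CPM. The immediate early and heat shock genes were lower in 15 of 17 and higher in 0, with a median of -2.91. Fos had 104.7 CPM against 2445 CPM. Hspa1a had 8.91 CPM against 3025 CPM, a log2 ratio of -8.24 and of -9.32 without mixed cells. Hypoxia and glycolysis genes were higher in 5 of 11 and lower in 1, with a median of 0.90. Among them Pgk1, phosphoglycerate kinase, had 430.1 CPM against 101 CPM.

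Cell cycle genes were higher in 11 of 12 at 1 day and lower in 0, with a median log2 ratio of 2.86. Ube2c, which drives exit from mitosis, was found in 15 of 47 cells at 1 day and in 4 of 221 bladder cells. Top2a, topoisomerase 2 alpha, was found in 12 of 47 and 4 of 221, while the median depth of the 1-day cells was 7045 UMIs against 4332. Pcna, a replication clamp, was the gene of the list that was not higher, at 35.7 CPM against 46.6 CPM. Valve genes were closer to the bladder level, with 1 of 12 higher and 2 lower and a median of -0.23. Without mixed cells 1 was higher and 4 were lower, with a median of -0.57. Foxc2 had 66.9 CPM against 77.2 CPM and Gja4, connexin 37, 316.5 CPM against 166 CPM. The 6 lowest log2 ratios at 1 day belonged to Ccl21a, Igfbp5 and the urothelial genes Upk3a, Sprr1a, Ivl and Krt8. Upk3a, a uroplakin of the bladder lining, had 0 UMIs at 1 day and 1050 CPM in bladder lymphatic cells, but 37.3 CPM in the bladder cells that were not mixed. Non-endothelial bladder cells had 4099 CPM of it.

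**Figure D3:**
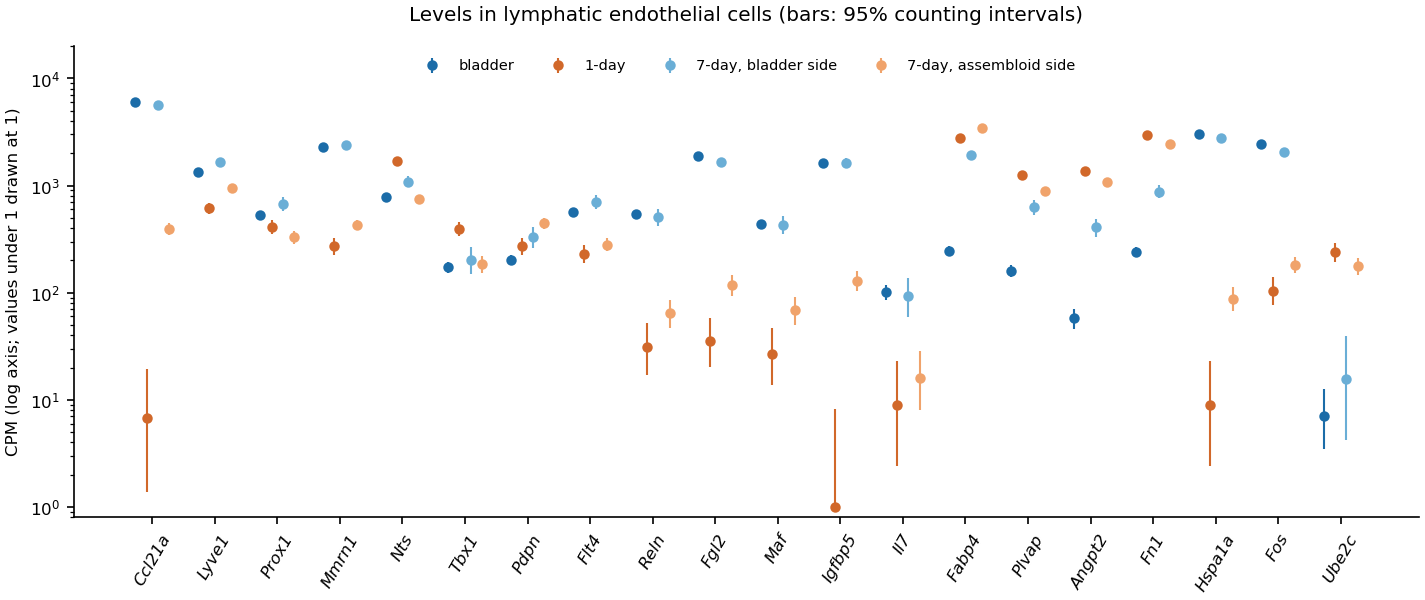
Summed level in CPM on a log axis of 20 genes in lymphatic cells of bladder, 1-day assembloids and both sides of the 7-day cells, with bars for 95% counting intervals and values under 1 CPM drawn at 1. The Ccl21a point lies at 5985 CPM for bladder and at 6.69 CPM for the 1-day cells, the Fabp4 points at 244 CPM and 2795 CPM.

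At 7 days the 115 lymphatic cells spread widely. Against bladder 11.1% of 6935 genes were higher and 11.4% lower. Ccl21a had 1826 CPM, between its 6.69 CPM at 1 day and 5985 CPM in bladder, with a log2 ratio to bladder of -1.71, or of -0.70 when each cell's CPM had equal weight. To describe the spread, each cell was scored by how much closer its UMIs were to 1-day than to bladder endothelium. The score was the mean log2 likelihood ratio per UMI over 3482 genes, with the other endothelial cells of both libraries as references. This measure was chosen after the data were seen. All 221 bladder lymphatic cells scored below 0 and 46 of 47 1-day cells at or above 0. Of the 7-day cells 81 scored below 0, called the bladder side here, and 34 at or above 0, the assembloid side. Within 0.1 of 0 lay 12 of them. With lymphatic cells in place of other endothelial cells as references 79 cells stayed on the bladder side and 32 on the assembloid side. Of the other endothelial cells of the 7-day library 542 scored below 0 and 534 at or above it. The sides differed in depth, with a median of 2164 UMIs on the bladder side and 14988.5 on the assembloid side. Whether the bladder-side cells had lived in the assembloids could not be told from the files.

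**Figure D4:**
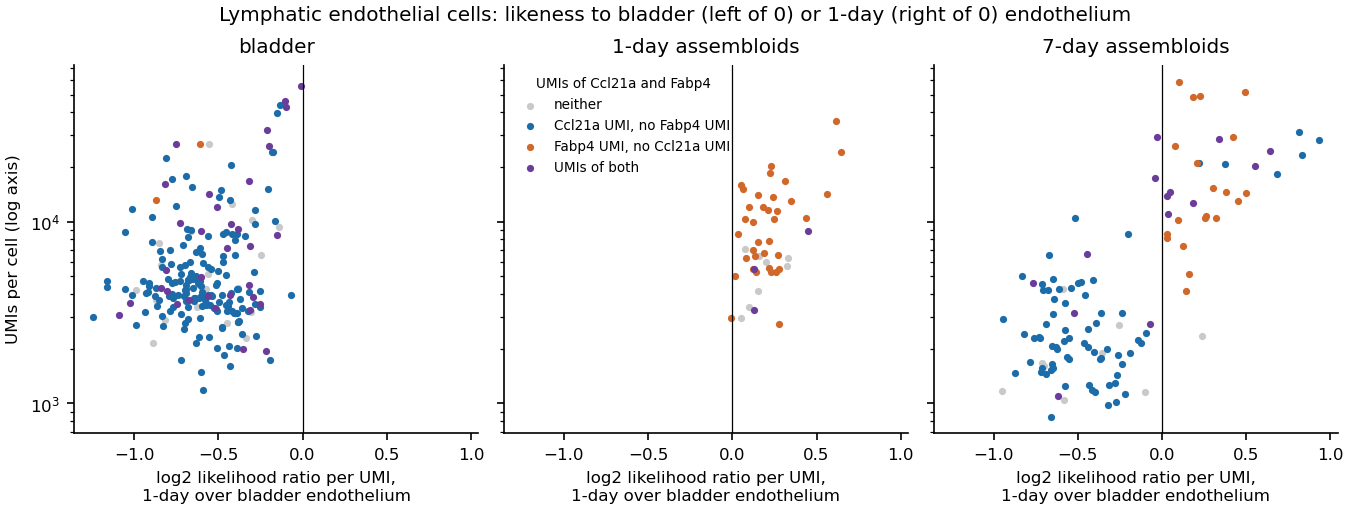
Score of each lymphatic cell for likeness to bladder (below 0) or to 1-day (above 0) endothelium against its UMIs on a log axis, for the 3 libraries, with colours for UMIs of Ccl21a and Fabp4. The 221 bladder cells lie below 0, 46 of 47 1-day cells at or above it, and the 7-day cells on both sides, 81 below and 34 at or above 0.

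The 81 cells of the bladder side had lymphatic levels close to those of bladder. Both sides were chosen by their likeness to bladder or 1-day endothelium over 3482 genes, so nearness to bladder on this side, and distance from it on the other, follows in part from the choice and is given as a description. Of 6599 genes 5.38% were higher and 6.68% lower than in bladder. No gene of the 21 measured in the lymphatic identity list was past 2-fold in either direction, with a median log2 ratio of 0.24, and the same held for the 17 immediate early genes, with a median of -0.13. Ccl21a had 5634 CPM against 5985 CPM in bladder, a log2 ratio of -0.09 (-0.17 to -0.01). Igfbp5 had 1628 CPM against 1630 CPM and Hspa1a 2759 CPM against 3025 CPM. An exception was Fabp4, at 1914 CPM against 244 CPM, where 3 cells held 488 of its 494 UMIs.

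The 34 cells of the assembloid side were far from bladder in their lymphatic levels. This comparison and the 1-day one share the bladder cells. Of 7078 genes 15.4% were higher and 17.5% lower than in bladder. Lymphatic identity genes were higher in 1 of 21 and lower in 12, with a median log2 ratio of -1.14, immediate early genes lower in 15 of 17, and cell cycle genes higher in 10 of 11. Ccl21a had 395 CPM, a log2 ratio of -3.92 (-4.10 to -3.75) against bladder, and 13 of the 34 cells had a UMI of it. Of these cells 9 were mixed. In the other 25 Ccl21a had 193 CPM, with a UMI in 5 cells, and a log2 ratio of -5.38. Prox1 had 329 CPM, Lyve1 953 CPM and Nts 744 CPM, with log2 ratios to bladder of -0.68, -0.48 and -0.08. Reln had 64.1 CPM, a log2 ratio of -3.07, and Fgl2 had 118 CPM, a log2 ratio of -3.99 that was -4.75 without mixed cells. Pdpn was the identity gene that was higher, at 444 CPM against 202 CPM.

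Lipid genes were higher in 2 of 9 and lower in 6 on this side against bladder, with a median log2 ratio of -2.21, and angiopoietin and tip cell genes were higher in 2 of 5 and lower in 2. Fabp4 had 3473 CPM (2795 CPM at 1 day and 244 CPM in bladder) and was found in 27 of 34 cells, and Angpt2 had 1077 CPM (1362 CPM and 57.4 CPM). Ube2c was found in 13 of 34 cells and in 2 of 81 on the bladder side, without thinning, at median depths of 14988.5 and 2164 UMIs. Wisp1 and Lox, which fibroblasts also express, had 141 CPM and 269.5 CPM, but 39.9 CPM and 65.0 CPM without mixed cells, and fibroblast markers summed to 4606 CPM on this side against 651 CPM on the bladder side. Their part in these levels was not tested beyond leaving the mixed cells out. Cldn11 had 0 UMIs on this side and was at least 7.30-fold lower than in bladder, and Foxc2 had 30.6 CPM against 77.2 CPM.

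Set beside the 1-day cells, the assembloid side of the 7-day cells had more Ccl21a and less Nts. Of 6753 genes measured, 5.41% were higher and 5.8% lower. Ccl21a had 395 CPM against 6.69 CPM, a log2 ratio of 5.66 (4.32 to 8.17), and 4.51 without mixed cells, where 3 cells held 89 of its 92 UMIs. In cells thinned to 2500 UMIs it was seen in 10 of 33 cells at 7 days and 2 of 47 at 1 day, while 0.22% of the 7-day non-endothelial cells and none of 7601 at 1 day had a UMI. These thinned cells include mixed ones, and at full depth 5 of the 25 unmixed 7-day cells had a UMI of Ccl21a. Lyve1 had 953 CPM against 617 CPM, a log2 ratio of 0.62 (0.42 to 0.83). Nts had 744 CPM against 1683 CPM, but 1026 CPM against 1754 CPM without mixed cells, a log2 ratio of -0.77 and under 2-fold. Gja4 had 45.2 CPM against 316.5 CPM. Of 20 lymphatic identity genes 5 were higher and 2 lower, with a median of 0.17. Without mixed cells 6 were higher and 0 lower, with a median of 0.32.

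**Figure D5:**
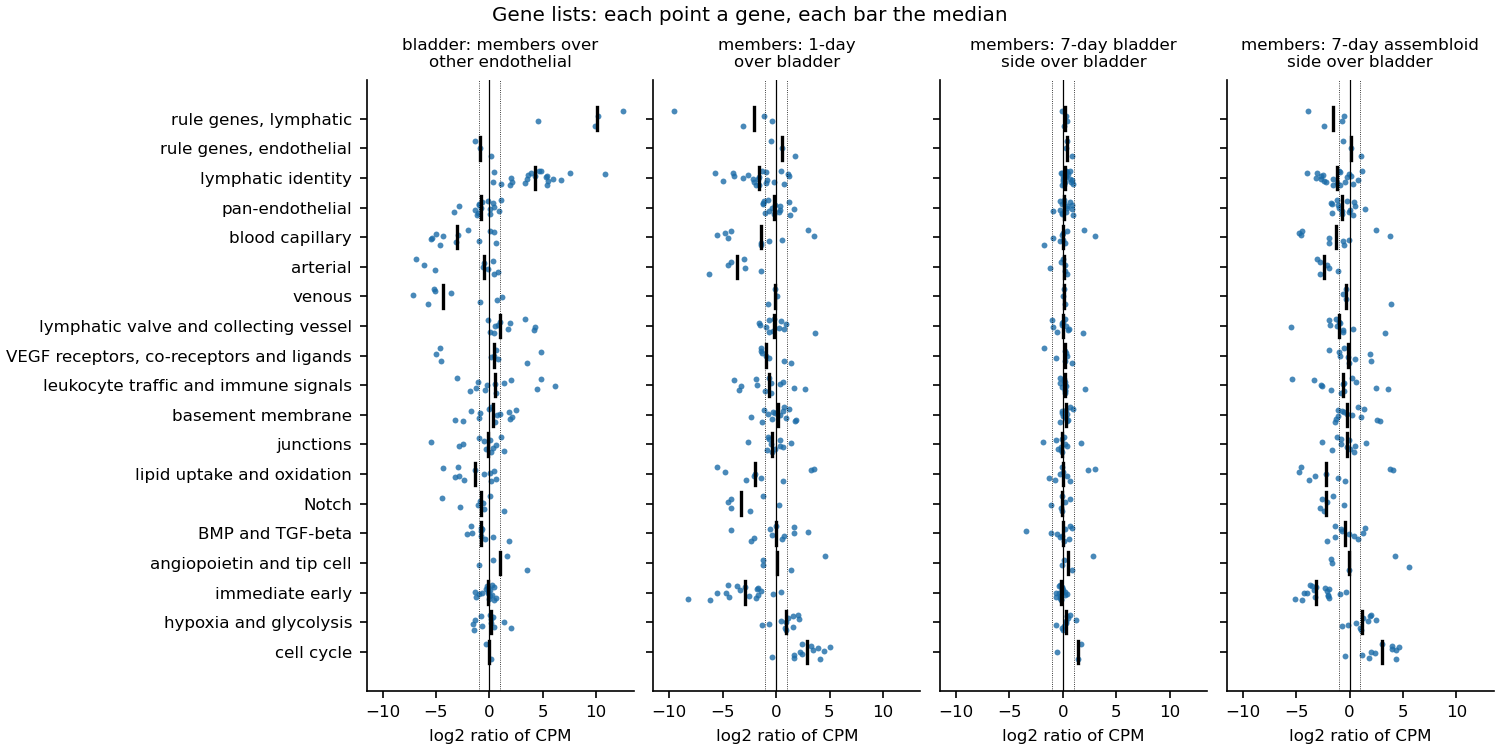
Log2 ratio of CPM for each measured gene of the 19 lists in 4 comparisons, with a point per gene, a bar at the list median and dotted lines at 2-fold. Lymphatic identity had a median of 4.26 in bladder against other endothelial cells and of -1.61 at 1 day, 0.24 on the 7-day bladder side and -1.14 on the 7-day assembloid side against bladder.

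Within each assembloid library the lymphatic cells still stood apart from the other endothelial cells. At 1 day 13.2% of 6765 genes were at least 2-fold higher and 8.48% lower in lymphatic cells, and of 20 lymphatic identity genes 17 were higher and 0 lower, with a median log2 ratio of 2.97. At 7 days 7.97% of 6714 genes were higher and 6.46% lower, and 18 of 20 identity genes were higher and 0 lower, with a median of 3.97. Among the other endothelial cells 241 of 636 at 1 day and 291 of 1076 at 7 days were mixed, with 57.3% and 61.1% of their UMIs. Without mixed cells 752 of 6549 genes were higher and 599 lower at 1 day, and 608 of 6680 higher and 646 lower at 7 days. In both, 19 of 20 identity genes were then higher and 0 lower, with medians of 3.20 and 3.81. Nts had 1683 CPM at 1 day in lymphatic cells against 22.0 CPM in the others, a log2 ratio of 6.26 and of 5.18 without mixed cells. Tbx1 had 392 CPM against 10.3 CPM, with 5.24 and 4.54. Fabp4 had 2795 CPM at 1 day against 54.4 CPM, a log2 ratio of 5.68 (5.54 to 5.83) and of 5.02 without mixed cells, the opposite direction to bladder. At 7 days it had 3047 CPM against 985.5 CPM, a log2 ratio of 1.63 and of 0.90 without mixed cells. Of 7 angiopoietin and tip cell genes measured at 1 day, 2 were higher and 4 lower in lymphatic cells. With mixed cells left out 0 were higher and 4 lower. Among the lower ones Apln, a peptide of sprouting tip cells, was at 0 UMIs in the 1-day lymphatic cells and 503 CPM in the other endothelial cells. Esm1, another tip cell gene, was at 0 UMIs against 151 CPM. Apln was not absent from the 7-day lymphatic cells, where the unmixed ones held 51 UMIs of it (71.5 CPM). Neo1, a receptor of netrins and repulsive guidance molecules, had 209.5 CPM against 14.9 CPM, a log2 ratio of 3.82 and of 4.76 without mixed cells.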

How the data were processed

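Bladders and assembloids had been dissociated with enzymes, and the 10x Genomics Chromium 3′ kit, version 3, had been used for libraries of single cells. The authors deposited raw UMI counts, which are whole numbers, for every gene in every barcode. Cell Ranger is named in the submitters' processing notes, with the builds GRCh38, mm10 and hg38, and its version is 3.1.0 per the file headers. Reads had been assigned to a combined human and mouse gene set, so reads shared by both genomes, or by gene copies such as those of Ccl21a, may be missing. Of the aligner's settings and annotation release nothing is stated in these sources.

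The lymphatic cells and the 19 gene lists were chosen with earlier results of these data known. UMIs were summed over the cells of a set with Python 3.11.15, numpy 2.4.6, scipy 1.17.1 and pandas 2.3.3, and divided by all mouse UMIs of the set (CPM). Summing weights deep cells more. Log2 ratios had 0.5 UMIs added, intervals of ratios were exact conditional ones and those of shares Clopper-Pearson, and the code was tested on simulated data. With 1 library per group no p-value was computed. The total UMIs per library, given in the report, set the counting error. Shares of cells with a UMI were taken after thinning each cell to 2500 UMIs only where the text says so. The other counts of cells with a UMI were taken at full depth and depend on it. Scrublet (scanpy 1.11.5) called 16, 3 and 4 lymphatic cells as doublets in bladder, 1-day and 7-day. They stayed in and were left out as an alternative.

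Genes were named by a rule: the 7 genes that chose the cells, up to 5 per list by log2 ratio in bladder, the 12 highest and 12 lowest there, and the 6 highest and lowest between libraries, at 100 CPM or more. Mitochondrial, ribosomal, sex-linked and predicted genes were left out. Other genes, such as Pdpn, Fgl2, Maf, Tbx1, Thy1, Nr2f2, Kdr, Plvap, Fabp5, Gpihbp1, Fn1, Hspa1a, Fos, Pgk1, Top2a, Gja4, Procr, F11r, Apln, Esm1 and Neo1, were chosen after their values were seen. So were the mixed cells, the 1-day ratios, the Ccl21a values in cells chosen by 3 genes and the score of the 7-day cells. Positions came from GENCODE vM21 (mm10) for 116 of 116 named genes. Alternatives were another rule, other filters and another scaling.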

Additional observations from a re-analysis of the deposited data

Results flagged for a closer look

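For 3 genes the lymphatic cells lay at least 2-fold on opposite sides of the other endothelial cells in bladder and at 1 day. The difference between the libraries was not tested, since each is 1 sample. Fabp4 had a log2 ratio of -4.32 in bladder and 5.68 at 1 day. Icam2, an adhesion molecule of endothelium, had -1.20 in bladder and 1.00 at 1 day. Ier3, an immediate early gene, had -1.34 in bladder and 1.01 at 1 day. Without mixed cells the 1-day log2 ratios of Icam2 and Ier3 were -0.01 and 0.45, under 2-fold, and that of Fabp4 was 5.02.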

How the results depend on the processing

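No paired analysis was possible because each group was 1 library. The counts of lymphatic cells rest on the rule: with at least 5 UMIs from 3 of the 4 genes 24 cells remained at 1 day (3.51% of endothelial cells). With cells thinned to 2500 UMIs there were 24 at 1 day and 51 at 7 days (7.67%). With at least 4 endothelial UMIs the 1-day share was 9.40%, and without mixed cells the shares were 10.2% at 1 day and 11.5% at 7 days. The Ccl21a log2 ratio of 7-day to bladder cells was -2.04 with at least 1000 genes per cell, -1.98 without Scrublet calls, -1.93 with 4 endothelial UMIs, -1.98 without mixed cells and -0.70 with the mean of each cell's CPM. With a minimum of 100 CPM the genes higher and lower were 191 and 212 for bladder lymphatic against other endothelial cells, 157 and 113 for the same at 7 days, 308 and 352 for 1-day against bladder, and 188 and 231 for 7-day against bladder. With the mean of each cell's CPM 763 genes were lower at 7 days against the other cells, and 414 were higher and 427 lower at 7 days against bladder. Npy had a log2 ratio of 2.14 when the other cells were limited to those with 0 UMIs of the 4 genes, where both sets had 0 UMIs of it and the value comes from their totals and the 0.5 added. Over all alternatives, 1209 log2 ratios of single genes kept their value within counting error, 240 moved and 1 reversed, and 1842 list counts stayed within 1.5-fold while 278 moved. Depth limits the 7-day bladder side most, where 49 of 81 cells fell under 2500 UMIs. Small sets were the 47 cells at 1 day, the 34 of the 7-day assembloid side (25 unmixed), the 29 with Cldn11, the 27 with Prox1 and the 22 without Lyve1.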

Other observations

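Xist, the transcript of the inactive X chromosome, and genes of the Y chromosome marked cells of more than 1 kind in the assembloids. In bladder 112 of 221 lymphatic cells had UMIs of Y-linked genes and none had Xist alone. At 1 day 10 of 47 cells had Xist without Y-linked UMIs and 24 had Y-linked UMIs without Xist. At 7 days 2 of 81 cells of the bladder side and 1 of 34 of the assembloid side had Xist alone, and 25 and 24 had Y-linked UMIs alone. The labels give no sex.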
